A study of Homo sapiens with 18 samples.

Results

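The 10 genes described here encode the Rap1 GTPases and the proteins that switch them: RAP1A and RAP1B, the exchange factors RAPGEF1, RAPGEF2, RAPGEF3, RAPGEF6 and RASGRP2, the GTPase-activating proteins RAP1GAP and SIPA1, and the chaperone RAP1GDS1. They were taken by gene symbol, by a rule that uses no measured value, from the 60683 gene identifiers of the count table, and all 10 were found. The list of symbols was itself chosen with earlier results of these data known. Each of the 10 also passed the filter on low counts, which left 18159 genes to test. The cells were Cal27, an established line of human tongue squamous cell carcinoma, cultured for 24 hours in 1 of 3 media. The media were DMEM rich in glucose, a glucose-deprived medium, and the glucose-rich DMEM to which 2-deoxyglucose (2-DG) had been added at 5 mM. Cells take up 2-DG as they do glucose but cannot carry it through glycolysis. In each medium 3 cultures received 10 nM recombinant human CGRP (calcitonin gene-related peptide, a neuropeptide of sensory nerves) and 3 received control medium, which gives 6 groups of 3 libraries. No genotype was altered in any group, all groups share the 1 line, and the 3 repetitions of a group are described in the labels as biologically independent. The sample titles read TG, taken here as CGRP, and capTG, taken as control. That assignment rests on the design text alone, since the growth protocol names only different CM without saying what that is.

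Rap1 is a small GTPase that is off when it holds GDP and on when it holds GTP. Exchange factors load it with GTP, GTPase-activating proteins make it hydrolyse GTP, and the membrane anchor that it needs is a geranylgeranyl group. In epithelia, active Rap1 is known for switching on integrins through talin and for holding E-cadherin junctions together through afadin. The exchange factor EPAC1, encoded by RAPGEF3, is opened directly by cAMP, the second messenger that the CGRP receptor (CALCRL with RAMP1) raises. The data measure RNA only, so the GTP loading of Rap1 was not measured.

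Library totals ran from 28.04M to 32.66M counts. The first principal component, 68.7% of the variance, separated glucose-deprived libraries from the rest. Replicate 2 of the deprived CGRP group and replicate 2 of the 2-DG control group stood apart on the second component, 7.39% of the variance, at 59.3 and 34.6. In the former, the log2 difference from the other 2 libraries of its group was -1.08 for RAPGEF2, -0.74 for RAPGEF1, 0.61 for RASGRP2, -0.59 for RAPGEF3, 0.40 for RAPGEF6 and 0.36 for RAP1A. In the 2-DG control library it was -0.68, -0.31, 0.10, 0.26, 0.10 and 0.17 for these genes, of the opposite sign for RAPGEF3. The other 4 genes lay between -0.07 and 0.21 in both libraries. Over all tested genes, the deviations of these 2 libraries from their group means correlated at 0.64. As 1 is a CGRP library and the other a control library, they enter the CGRP comparisons of their media with opposite sign. Results that rest on these libraries are therefore given with and without them. The squamous markers that the line should carry (KRT5, KRT14, TP63 and others, 9 genes) summed to between 3535 and 5011 CPM (read counts scaled to the total of the library) in every library.

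RAP1A was the most abundant of the 10 genes per length in the high-glucose control, and RAPGEF3 the least. Levels per length are CPM, scaled by the trimmed mean of M-values (TMM), divided by the kilobases of all annotated exons of the gene. RAP1A stood at 15.2 ± 0.43 CPM per kb (SD, n = 3), followed by the exchange factor RAPGEF1, recruited to adhesion sites by the adaptor CRK, at 13.3 ± 0.25. SIPA1, a GTPase-activating protein for Rap, came next at 11.3 ± 0.42, above RAP1B at 6.56 ± 0.13 CPM per kb. RAP1GDS1, which binds newly made GTPases before they reach the membrane, stood at 4.88 ± 0.29 and RAP1GAP at 3.68 ± 0.20 CPM per kb. The PDZ-domain exchange factors RAPGEF6 and RAPGEF2 stood at 1.22 ± 0.060 and 1.21 ± 0.053 CPM per kb, and their library ranges overlapped. RASGRP2, an exchange factor opened by calcium and diacylglycerol and best known from platelets, stood at 0.889 ± 0.092, and RAPGEF3 at 0.107 ± 0.0084 CPM per kb. No other neighbours in this order overlapped in range. With the length of the principal transcript in its place, a choice made after the data were seen, the first 6 and the last place were the same. RASGRP2 (2.34), RAPGEF2 (2.32) and RAPGEF6 (1.62 CPM per kb) then stood in the order given, so the order of these 3 depends on the length used.

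**Figure D1:**
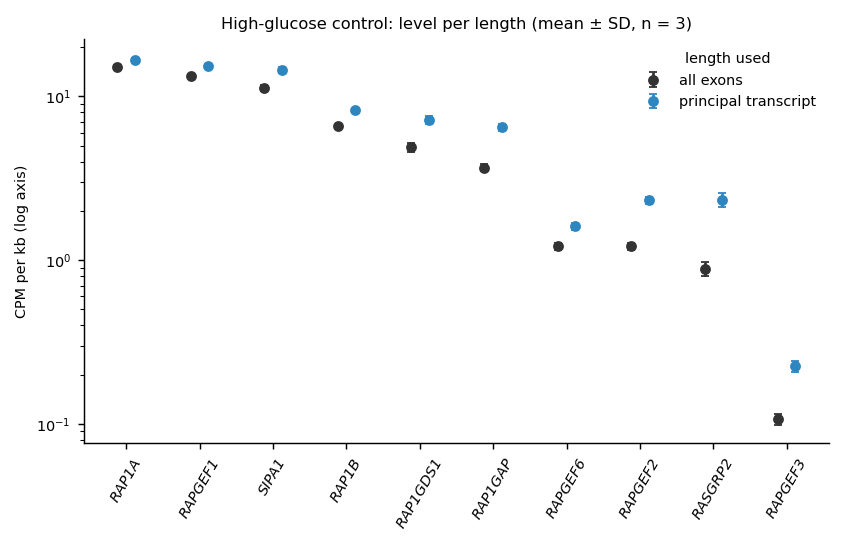
Level of each gene in the 3 high-glucose control libraries in CPM per kb on a log axis; points are means and bars the SD, with the length of all exons in black and of the principal transcript in blue. RAP1A leads at 15.2 and RAPGEF3 is last at 0.107 CPM per kb with the length of all exons.

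Some reads of these genes cannot be assigned with certainty, because the counting rule is not given in the sources used here. RAP1B has a near-identical processed copy, RAP1BL, which held 674 counts over the 18 libraries, 1.11% of those of RAP1B, and the copy RAP1AP of RAP1A held 8 counts. In the GENCODE 29 annotation the exons of RAPGEF3 share 1836 bases, 15.2% of their length, with the antisense gene AC004241.1, which had 645 counts against 810 of RAPGEF3 over all libraries. Without a strand setting, reads of this pair cannot be told apart. RAPGEF3 also shares 83 bases, 0.69% of its exon length, with SLC48A1 on the opposite strand, which had 10387 counts over all libraries. RAPGEF6 shares 54.9% of its exon length with AC008695.1 on the same strand, which was listed at 0 in every library.

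Glucose deprivation without CGRP had its largest effect among these genes on the exchange factor RASGRP2. In CPM, the 3 high-glucose control libraries held 5.54, 4.80 and 5.89, and the 3 deprived control libraries 0.362, 0.552 and 0.646. Every deprived library lay far below every high-glucose library. The fall was 10.4-fold, a log2 fold change of -3.37 ± 0.18 (SE; 95% interval -3.76 to -2.98; edgeR quasi-likelihood F test, Benjamini-Hochberg adjusted p = 1.42e-10), on 492 counts in the former group and 46 in the latter. In bulk RNA, fewer cells that express a gene and less RNA per cell cannot be told apart. SIPA1, which acts on Rap in the opposite direction to RASGRP2, also fell. Its level was 52.3, 51.0 and 54.9 CPM in high glucose and 31.4, 32.2 and 32.0 in deprived medium, a 1.65-fold fall (log2 fold change -0.73 ± 0.05, adjusted p = 1.86e-09). The groups did not overlap.

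The other GTPase-activating protein, RAP1GAP, moved the opposite way. It was measured at 22.4, 21.1 and 20.1 CPM in high glucose and at 25.4, 30.7 and 29.4 in deprived medium, with no overlap, and rose 1.35-fold (log2 fold change 0.43 ± 0.07, adjusted p = 2.96e-05). RAPGEF2, an exchange factor with a PDZ domain, stood at 15.3, 16.5 and 16.5 CPM against 28.9, 28.1 and 30.2 in deprived medium. It rose 1.80-fold (0.85 ± 0.22, adjusted p = 0.0030). RAPGEF1 stood at 91.6, 92.9 and 95.0 CPM against 117, 119 and 124, and rose 1.29-fold (0.36 ± 0.14, adjusted p = 0.033). That call was lost in 10 of 14 alternative analyses. The 2 libraries that stand apart, which belong to neither group, widen the error shared by all groups: without them the RAPGEF1 change was 0.33 ± 0.04 (adjusted p = 4.72e-11). RAP1A fell 1.21-fold, from 81.6, 85.1 and 86.0 CPM to 70.6, 69.6 and 68.6 (-0.27 ± 0.08, adjusted p = 0.0081).

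In all, 6 of the 10 genes passed the threshold of adjusted p under 0.05, 3 higher and 3 lower. Of all genes tested, 60.6% passed, 31.0% higher and 29.6% lower, and the 6 of 10 Rap1 genes are a share near that background. The median log2 fold change was 0.07 for the 10 genes and 0.02 for all genes. RAP1B (0.07 ± 0.05), RAPGEF3 (-0.05 ± 0.20), RAPGEF6 (0.18 ± 0.10) and RAP1GDS1 (0.07 ± 0.07) did not pass, with 95% intervals of -0.02 to 0.17, -0.47 to 0.37, -0.03 to 0.39 and -0.07 to 0.22. Without the 2 libraries that stand apart, RAPGEF6 passed as well (0.15 ± 0.07, adjusted p = 0.044), where 72.4% of all genes did.

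**Figure D2:**
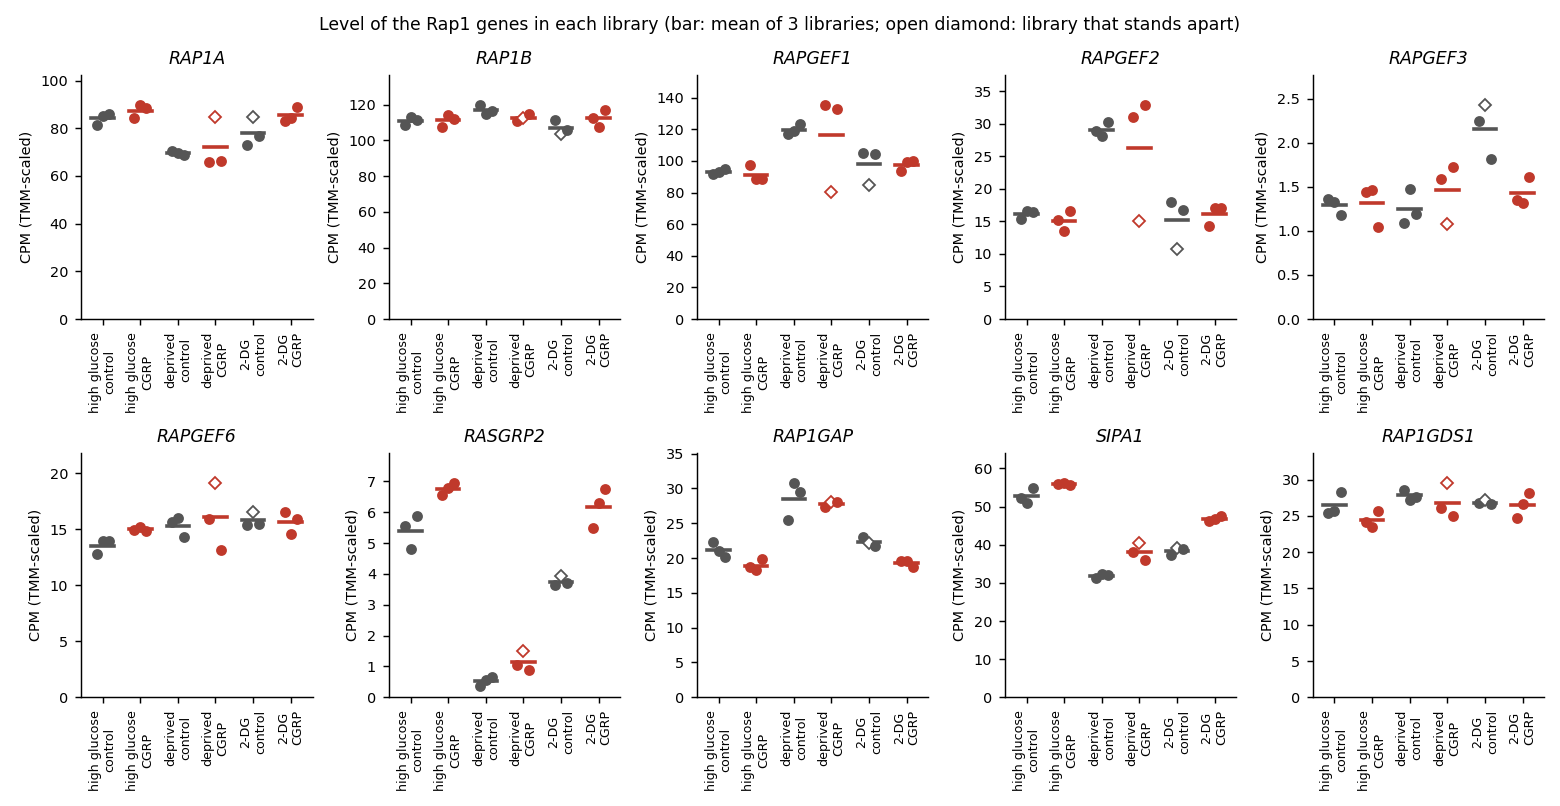
Level of each of the 10 genes in TMM-scaled CPM in each of the 18 libraries, with a linear axis from 0; control libraries are grey, CGRP libraries red, bars are means of 3 and open diamonds mark the 2 libraries that stand apart. RASGRP2 lies between 0.362 and 1.50 CPM in deprived medium and between 3.63 and 6.94 elsewhere, and the diamonds lie low for RAPGEF1 and RAPGEF2.

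Under CGRP, deprivation called the same 6 genes in the same directions. The group means come from 6 libraries that are in neither group of the comparison without CGRP. The error is estimated from all 18 libraries in both comparisons, so the 2 sets of calls are not fully separate. RASGRP2 held 6.55, 6.79 and 6.94 CPM in high glucose with CGRP and 1.06, 1.50 and 0.878 in deprived medium with CGRP, a 5.94-fold fall (-2.57 ± 0.16, adjusted p = 6.33e-10). SIPA1 went from 55.9, 56.1 and 55.6 CPM to 38.0, 40.5 and 35.9 (-0.55 ± 0.05, adjusted p = 5.28e-08). RAP1GAP went from 18.7, 18.2 and 19.8 to 27.4, 28.0 and 28.0 CPM (0.56 ± 0.07, adjusted p = 1.84e-06). The groups of these 3 genes did not overlap. RAPGEF2 held 15.3, 13.5 and 16.5 CPM in high glucose and 31.0, 15.1 and 32.8 in deprived medium, where replicate 2, which stands apart, lay within the high-glucose range. Its change was 0.81 ± 0.22 (adjusted p = 0.0046) with that library and 1.06 ± 0.07 without both libraries that stand apart. RAPGEF1 (0.35 ± 0.14, adjusted p = 0.041) became 0.53 ± 0.04 without them, and RAP1A (-0.28 ± 0.08, adjusted p = 0.0080) became -0.43 ± 0.04. The RAPGEF1 call under CGRP was lost in 10 of 14 alternatives, and fitted on these 2 groups alone those of RAP1A (adjusted p = 0.053) and RAPGEF2 (adjusted p = 0.061) were lost as well. Of all genes tested 60.4% passed under CGRP, 31.9% higher and 28.5% lower, and 51.4% passed in the same direction in both comparisons, against 6 of the 10 Rap1 genes.

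2-DG without CGRP changed 3 of the 10 genes, 1 higher and 2 lower, where 13.8% of all genes tested passed, 7.99% higher and 5.85% lower. The gene that rose was RAPGEF3. It held 1.37, 1.33 and 1.18 CPM in the high-glucose control libraries, against 2.24, 2.43 and 1.81 with 2-DG. These groups did not overlap, and the rise was 1.67-fold (0.74 ± 0.18, adjusted p = 0.013) on 118 and 199 counts. The antisense gene AC004241.1, whose exons overlap those of RAPGEF3, averaged 1.26 CPM in the former group and 0.919 in the latter, and its part in the RAPGEF3 result was not tested. SIPA1 fell 1.37-fold, to 37.4, 39.0 and 38.9 CPM (-0.46 ± 0.05, adjusted p = 1.48e-05). RASGRP2 fell 1.44-fold, to 3.63, 3.94 and 3.69 CPM (-0.53 ± 0.14, adjusted p = 0.016). Leaving out replicate 1 or 3 of either group ended the RASGRP2 call, with adjusted p of at most 0.080. Leaving out replicate 3 of the high-glucose control or replicate 2 of the 2-DG control ended that of RAPGEF3, with adjusted p of 0.062 and 0.052. Without both libraries that stand apart 5 of the 10 genes and 32.5% of all genes passed, among them RAP1A (-0.18 ± 0.04, adjusted p = 4.76e-04) and RAPGEF1 (0.16 ± 0.04, adjusted p = 0.0011).

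Deprivation and 2-DG were also compared directly, since both contrasts above use the same high-glucose control libraries. In 2-DG control medium RASGRP2 stood 7.18-fold above its level in deprived control medium (2.84 ± 0.19, adjusted p = 2.40e-09). RAPGEF3 (0.79 ± 0.19, adjusted p = 0.0017) and SIPA1 (0.27 ± 0.05, adjusted p = 1.90e-04) were higher in 2-DG too. RAPGEF2 (-0.93 ± 0.22, adjusted p = 0.0016), RAP1GAP (-0.36 ± 0.07, adjusted p = 2.06e-04) and RAP1B (-0.13 ± 0.05, adjusted p = 0.028) were lower in 2-DG. The RAP1B call was lost in 10 of 14 alternatives. These 6 of 10 genes compare with 57.5% of all genes tested, 28.9% higher and 28.6% lower. Without both libraries that stand apart 8 of the 10 genes and 66.8% of all genes passed. RAP1A (0.13 ± 0.04, adjusted p = 0.0050) and RAPGEF1 (-0.17 ± 0.04, adjusted p = 2.10e-04) were added, and RAPGEF2 became -0.72 ± 0.07. With CGRP in both media, 2-DG against high glucose left 1 gene past the threshold, where 2.39% of all genes passed (1.52% higher, 0.870% lower). It was SIPA1, at 46.2, 46.6 and 47.6 CPM against 55.9, 56.1 and 55.6 (-0.26 ± 0.05, adjusted p = 0.010). Leaving out replicate 2 of the high-glucose CGRP group, or replicate 1 or 2 of the 2-DG CGRP group, ended that call. RASGRP2 (-0.13, interval -0.40 to 0.14) and RAPGEF3 (0.11, interval -0.30 to 0.52) did not pass there.

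**Figure D3:**
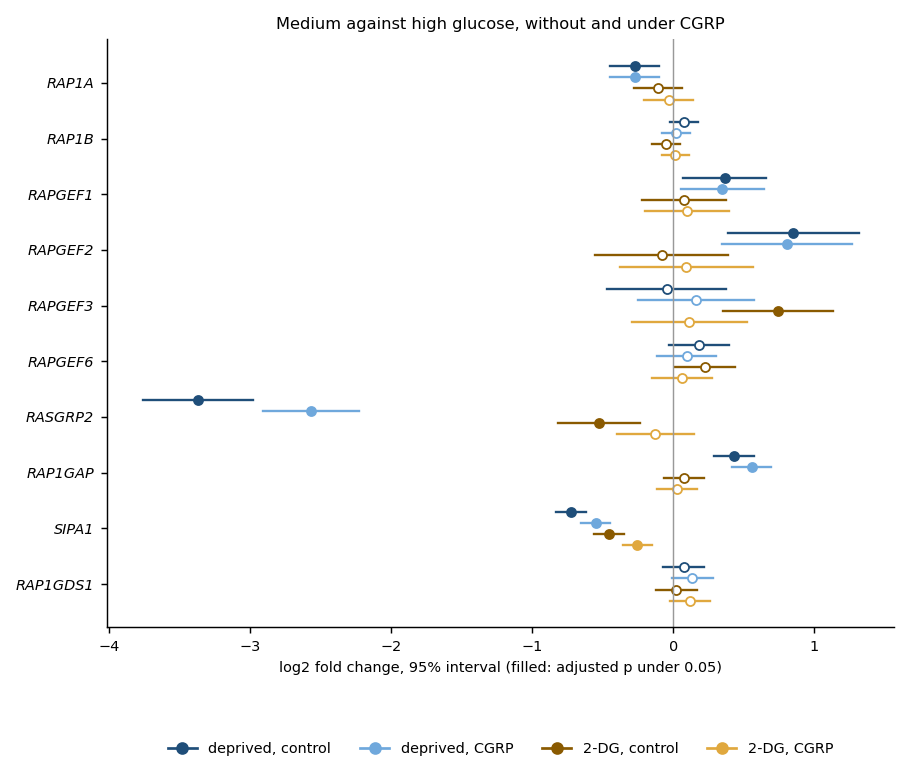
Log2 fold change of each gene in deprived medium (blue) and in 2-DG medium (brown) against high glucose, darker without and lighter with CGRP in both groups; lines are 95% intervals and filled points passed adjusted p under 0.05. RASGRP2 lies at -3.37 and -2.57 under deprivation and at -0.53 and -0.13 under 2-DG.

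CGRP raised RASGRP2 and SIPA1 both in deprived and in 2-DG medium. The control libraries of these comparisons are the same in which both genes were lower than in high glucose. In deprived medium RASGRP2 went from 0.362, 0.552 and 0.646 to 1.06, 1.50 and 0.878 CPM, with no overlap. The rise was 2.18-fold (log2 fold change 1.12 ± 0.23, 95% interval 0.63 to 1.62, adjusted p = 0.0046) on 46 and 96 counts, and was 0.90 ± 0.29 (adjusted p = 0.015) without the 2 libraries that stand apart. The level with CGRP was below every library in high glucose. SIPA1 went from 31.4, 32.2 and 32.0 to 38.0, 40.5 and 35.9 CPM, a 1.20-fold rise (0.26 ± 0.05, adjusted p = 0.0027). These were 2 of the 10 genes, both higher, where 13.0% of all genes tested passed, 6.38% higher and 6.58% lower. Fitted on the 2 groups alone, neither passed (adjusted p = 0.138 for RASGRP2 and 0.135 for SIPA1). Without the 2 libraries that stand apart RAPGEF1 passed as well, where 28.7% of all genes did. Its change went from -0.04 ± 0.14 to 0.17 ± 0.04 (adjusted p = 5.99e-04).

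In 2-DG medium CGRP was followed by 4 calls, 2 higher and 2 lower, where 12.2% of all genes passed, 5.31% higher and 6.89% lower. RASGRP2 rose 1.65-fold, from 3.63, 3.94 and 3.69 to 5.49, 6.31 and 6.74 CPM (0.72 ± 0.13, adjusted p = 0.0020), and SIPA1 1.22-fold, from 37.4, 39.0 and 38.9 to 46.2, 46.6 and 47.6 CPM (0.28 ± 0.05, adjusted p = 0.0010). Neither pair of groups overlapped, and both calls held in all 14 alternatives. RAPGEF3 fell from 2.24, 2.43 and 1.81 to 1.35, 1.32 and 1.61 CPM (-0.60 ± 0.18, adjusted p = 0.042). Its rises with 2-DG, against high glucose and against deprived medium, use these same control libraries. The overlapping genes SLC48A1 and AC004241.1 averaged 20.7 and 0.919 CPM without CGRP and 15.5 and 1.00 CPM with it. Their part in the fall of RAPGEF3 was not tested. RAP1GAP fell from 23.0, 22.2 and 21.7 to 19.5, 19.5 and 18.7 CPM (-0.21 ± 0.07, adjusted p = 0.049). These last calls were lost in 11 of 13 and in 13 of 14 alternatives. Without both libraries that stand apart RAP1A passed as well (0.19 ± 0.04, adjusted p = 1.64e-04), where 28.4% of all genes did.

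The 3 libraries of 2-DG with CGRP also held RNA of lymphocyte genes. PTPRC, the pan-leukocyte marker CD45, had 15, 18 and 25 counts in them and at most 1 in any other library, and CD3E, of the T cell receptor complex, had 20 counts in the group and at most 2 in any other group. RASGRP2 is known to be expressed in lymphocytes and platelets. Its sum in this comparison went from 345 to 559 counts. PTPRC and CD3E were at 0 in all 6 libraries of deprived medium. The part of these transcripts in the rise of RASGRP2 in 2-DG was not tested.

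In high glucose no gene passed with CGRP in edgeR or in DESeq2, where 4.33% of all genes passed, and 2 passed at an unadjusted p under 0.05. These were RASGRP2, from 5.54, 4.80 and 5.89 to 6.55, 6.79 and 6.94 CPM (0.32 ± 0.13, interval 0.05 to 0.60, adjusted p = 0.22), and RAP1GAP (-0.16 ± 0.07, interval -0.30 to -0.02, adjusted p = 0.23). The RASGRP2 libraries did not overlap, and without both libraries that stand apart it passed (0.33 ± 0.10, adjusted p = 0.015), as did 19.1% of all genes. SIPA1 changed by 0.08 ± 0.05 (interval -0.02 to 0.19). Averaged over the 3 media, CGRP raised RASGRP2 1.65-fold (0.72 ± 0.10, adjusted p = 6.57e-05) and SIPA1 1.16-fold (0.21 ± 0.03, adjusted p = 5.53e-05) and lowered RAP1GAP 1.10-fold (-0.14 ± 0.04, adjusted p = 0.016). These 3 of 10 genes compare with 21.4% of all genes tested, 9.92% higher and 11.5% lower. Without both libraries that stand apart 4 of the 10 genes and 39.0% of all genes passed, with RAP1A added (0.06 ± 0.02, adjusted p = 0.025). The RAP1GAP call was lost with total-count scaling, without a low-count filter and without replicate 2 of the deprived control.

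Whether CGRP acted more strongly in the other media than in high glucose was tested as a difference of differences. None of the 10 genes passed in either comparison in edgeR or DESeq2, where 1.55% of all genes passed for deprived medium and 0.391% for 2-DG. At an unadjusted p under 0.05 there were 2 and 3 genes. The CGRP effect on RASGRP2 was larger in deprived medium than in high glucose by 0.80 ± 0.27 log2 units (interval 0.24 to 1.37, adjusted p = 0.18) and larger in 2-DG by 0.40 ± 0.19 (interval 0.00 to 0.79, adjusted p = 0.58). For SIPA1 the differences were 0.18 ± 0.07 (adjusted p = 0.29) and 0.20 ± 0.07 (adjusted p = 0.33). Without the 2 libraries that stand apart, the SIPA1 difference in 2-DG passed (0.21 ± 0.06, adjusted p = 0.025), as did RAPGEF1 in deprived medium (0.19 ± 0.05, adjusted p = 0.010), where 5.91% and 13.5% of all genes passed. With all 18 libraries, the 2 Rap1 genes themselves showed no CGRP effect past the threshold in any medium. The intervals ran from -0.12 to 0.23 for RAP1A and from -0.10 to 0.10 for RAP1B in high glucose. In the same order they ran from -0.12 to 0.23 and from -0.15 to 0.04 in deprived medium. In 2-DG they ran from -0.04 to 0.30 and from -0.03 to 0.17. Without the 2 libraries that stand apart RAP1A passed in 2-DG (0.19 ± 0.04, adjusted p = 1.64e-04), where 28.4% of all genes did.

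**Figure D4:**
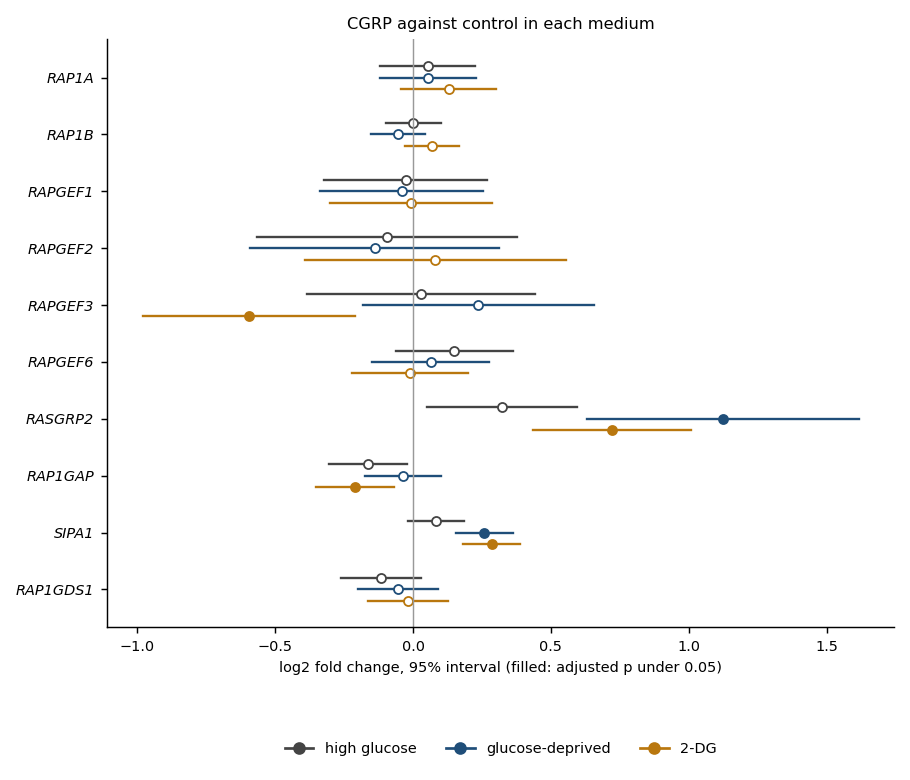
Log2 fold change with CGRP for each gene in high glucose (grey), deprived (blue) and 2-DG medium (brown); lines are 95% intervals and filled points passed adjusted p under 0.05. RASGRP2 lies to the right of 0 in all 3 media, at 0.32, 1.12 and 0.72, and SIPA1 at 0.08, 0.26 and 0.28.

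Several lists of markers of other cell types also differed between the groups. Of 5 platelet and megakaryocyte genes, GP9 and GP1BB were at 0 in all 18 libraries, and most of the sum of the list was ITGA2B. The list summed to 0.857 to 1.34 CPM in the high-glucose control and 1.10 to 1.75 in high glucose with CGRP. In deprived medium it summed to 0.165 to 0.483 without and 0.424 to 0.976 with CGRP, and in 2-DG to 0.791 to 1.01 without and 0.740 to 1.61 with CGRP. The 4 endothelial genes, most of whose reads were CDH5, summed to 24.4 to 25.2 CPM in the high-glucose control, 42.5 to 44.0 in high glucose with CGRP, 1.86 to 2.63 in the deprived control and 3.08 to 3.87 in deprived medium with CGRP. The 2-DG libraries ran from 21.4 to 25.2 without and from 39.8 to 43.7 with CGRP. The 5 leukocyte genes, most of whose reads were CD14, summed to 2.19 to 2.40 CPM in the high-glucose control, 3.03 to 4.71 with CGRP, 0.0345 to 0.0988 in the deprived control and 0.195 to 0.501 in deprived medium with CGRP. In 2-DG they summed to 1.85 to 2.11 without and 3.20 to 4.34 with CGRP. The 6 neuronal genes summed to 13.1 to 13.6 CPM in the high-glucose control and 22.6 to 24.0 with CGRP, to 9.93 to 11.03 and 14.4 to 15.6 in deprived medium, and to 15.7 to 17.4 and 23.3 to 27.3 in 2-DG. The 5 fibroblast genes summed to 25.4 to 27.0 and 26.2 to 28.5 CPM in high glucose, 10.6 to 11.6 and 10.9 to 16.01 in deprived medium, and 17.9 to 19.7 and 24.4 to 25.4 in 2-DG, and the 4 Schwann cell genes to between 0.824 and 2.47 CPM in all libraries. Without CGRP, RASGRP2 was lower in 2-DG than in high glucose. In that comparison the fibroblast and leukocyte sums were also lower, with no overlap, and the neuronal sum was higher. The endothelial, platelet and Schwann cell ranges overlapped. The part of these lists in the RASGRP2 result was not tested.

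RASGRP2 and SIPA1 lie on chromosome 11, and both fell with deprivation and with 2-DG and rose with CGRP in those media. The 250 bases before the start of each are shown so that the 2 can be set beside RAP1B, whose level did not pass any CGRP comparison. They are RefSeq windows on GRCh38.p14, printed 5′ to 3′ on the strand of the gene. RASGRP2 is chr11:64745349-64745598 on the minus strand, SIPA1 chr11:65637851-65638100 on the plus strand (the first of its 2 entries) and RAP1B chr12:68610649-68610898 on the plus strand. Capitals mark matches to the motifs named below.
RASGRP2: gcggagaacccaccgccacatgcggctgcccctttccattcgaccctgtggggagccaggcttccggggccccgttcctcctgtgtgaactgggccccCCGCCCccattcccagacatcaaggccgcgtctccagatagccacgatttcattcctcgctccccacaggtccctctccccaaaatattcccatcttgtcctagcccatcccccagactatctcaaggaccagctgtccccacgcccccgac
SIPA1: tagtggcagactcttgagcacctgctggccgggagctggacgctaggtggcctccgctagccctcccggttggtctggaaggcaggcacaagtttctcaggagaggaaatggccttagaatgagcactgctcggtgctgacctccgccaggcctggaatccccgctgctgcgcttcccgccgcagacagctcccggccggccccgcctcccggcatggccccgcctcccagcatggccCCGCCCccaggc
RAP1B: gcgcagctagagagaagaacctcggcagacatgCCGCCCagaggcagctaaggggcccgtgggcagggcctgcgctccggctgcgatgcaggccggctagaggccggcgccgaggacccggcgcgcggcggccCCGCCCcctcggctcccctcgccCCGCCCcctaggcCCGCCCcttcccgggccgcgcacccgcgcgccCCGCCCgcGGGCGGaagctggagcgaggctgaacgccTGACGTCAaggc

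Searched on both strands were the cAMP response element TGACGTCA, present in 1.65% of 35116 windows of this length, its half-site TGACG (21.2%), the E-box CACGTG (6.34%), the GC box GGGCGG (42.6%), CCAAT (32%) and the amino acid response element TGATGNAA (3.14%). The half-site lies within the full element, so these matches overlap. The RASGRP2 window held 1 GC box and the SIPA1 window 1 GC box, and neither held another of these motifs. The RAP1B window held 6 GC boxes and 1 full cAMP response element, whose first base lies 12 bases before the start. It was the 1 such element among 15 windows of the 8 genes with an entry, and RAP1GAP and RAP1GDS1 had none. The matches describe letters only, and binding was not measured.

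The levels of RASGRP2 and SIPA1 across libraries were set beside those of 13444 other genes. The 3 genes with the pattern most like RASGRP2 over the 18 libraries were SSBP3 (Pearson r of log2 CPM 0.991), LYPD3 (0.990) and KCNJ15 (0.990). Those most like SIPA1 were JUP, the junction protein plakoglobin (0.979), PLEKHH3 (0.978) and PXMP4 (0.976). The 18 points share 6 groups, so these values describe group differences. Over all 6 groups together, RASGRP2 ranked 960 and SIPA1 1650 of 18159 genes by the p of any difference, RAP1GAP 3954, and the other 7 genes ranked 8848 or beyond.

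The rest of the Rap pathway is described by counts of genes that passed, beside the 60.6% of all genes that passed with deprivation without CGRP (31.0% higher, 29.6% lower, median 0.02). Of 7 other exchange factors tested, 6 were lower and 0 higher, with a median log2 fold change of -0.91. PLCE1, which loads Rap1 and also cleaves phosphoinositides, fell by 2.83 log2 units (adjusted p = 3.41e-09), RAPGEF5 by 0.99 and RAPGEFL1 by 0.91. RASGRP1, a relative of RASGRP2 known from T cells, went from 28 to 4 counts (-2.66 ± 0.65). Of the 3 related GTPases, RAP2B (1.45 ± 0.06, adjusted p = 1.89e-12) and RAP2C (0.42 ± 0.05) rose. Of 5 other GTPase-activating proteins, SIPA1L1 (1.14 ± 0.15, adjusted p = 4.15e-06) and RASA3 (0.35 ± 0.06) rose, and 3 did not pass. Under CGRP, where 60.4% of all genes passed, the counts for these lists were 5 lower of 7, 2 higher of 3 and 2 higher of 5.

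Effectors moved both ways. Of 14 tested, 4 were higher and 4 lower with deprivation, with a median of 0.10, a share near the 60.6% of all genes. TLN2, a talin that couples integrins to actin, rose by 1.55 ± 0.17 log2 units, while RASSF5, a Rap1 effector of adhesion, fell by 1.36, TIAM1, an exchange factor for Rac, by 1.21 and RGL1, an exchange factor for Ral, by 1.05. APBB1IP, which links Rap1 to talin in blood cells, had 1 count in all 18 libraries and could not be tested. Of 12 integrin and E-cadherin complex genes, 5 were lower and 3 higher (median -0.20), also near that share. ITGB6, an epithelial receptor for latent TGF-beta, fell by 2.57 log2 units (adjusted p = 1.87e-13) and ITGB8 by 1.94, while CDH1 (0.61 ± 0.10), ITGB4 (0.53 ± 0.10) and ITGA3 (0.51 ± 0.08) rose. Of 6 adaptors, BCAR1 rose (0.37 ± 0.05) and MAGI1 fell (-0.65 ± 0.14). Of 5 genes of the lipid anchor, PGGT1B, a subunit of the geranylgeranyl transferase, rose by 0.65 ± 0.06, and ICMT, which methylates the finished anchor, fell by 0.62. RCE1 and FNTA also passed as higher, and these calls were lost in 11 and 6 of 14 alternatives.

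The genes of cAMP supply and removal include the CGRP receptor, which acts upstream of EPAC1. With deprivation 5 of 12 were lower and 2 higher (median -0.05), again near the 60.6% of all genes. Both parts of the receptor fell: RAMP1 averaged 18.4 ± 0.54 CPM in high-glucose control libraries and 6.89 ± 0.49 CPM in deprived ones (-1.42 ± 0.19, adjusted p = 5.92e-06), and CALCRL 5.24 ± 0.73 and 2.17 ± 0.061 (-1.27 ± 0.20, adjusted p = 4.82e-05). ADCY7, an adenylyl cyclase, rose by 1.96 ± 0.14, PDE4D, which breaks down cAMP, by 0.49 ± 0.11, and the kinase subunit PRKACA fell by 0.50. With CGRP averaged over the media, where 21.4% of all genes passed, 1 of the 12 did, ADCY3, which fell by 0.28 (adjusted p = 2.43e-05). Of the other lists, 1 exchange factor rose (RAPGEFL1, 0.17 ± 0.03) and 1 fell (RAPGEF4, -0.33 ± 0.10, lost in 7 of 25 alternatives). RASA3, 1 of 5 GTPase-activating proteins, fell (-0.15 ± 0.04) and BCAR1, 1 of 6 adaptors, fell (-0.12 ± 0.03), each lost in 1 of 25 alternatives. Among effectors RGL1 (0.40 ± 0.10) and RASSF5 (0.23 ± 0.06) rose and VAV2 fell by 0.17. Among integrins ITGB5 (-0.28 ± 0.03) and ITGA3 (-0.25 ± 0.05) fell and ITGB8 rose (0.31 ± 0.09, lost in 2 of 25). Of these lists, 2-DG without CGRP, where 13.8% of all genes passed, moved RAP2B (0.24 ± 0.06), VAV2 (0.22 ± 0.05), BCAR1 (0.31 ± 0.05), ITGA3 (0.32 ± 0.08) and ICMT (0.16 ± 0.04) up and RAPGEFL1 (-0.24 ± 0.05) and PRKACA (-0.27 ± 0.06) down. Of these 7 calls, those of BCAR1 and RAPGEFL1 held in all 14 alternatives and the others were lost in 1 to 5.

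**Figure D5:**
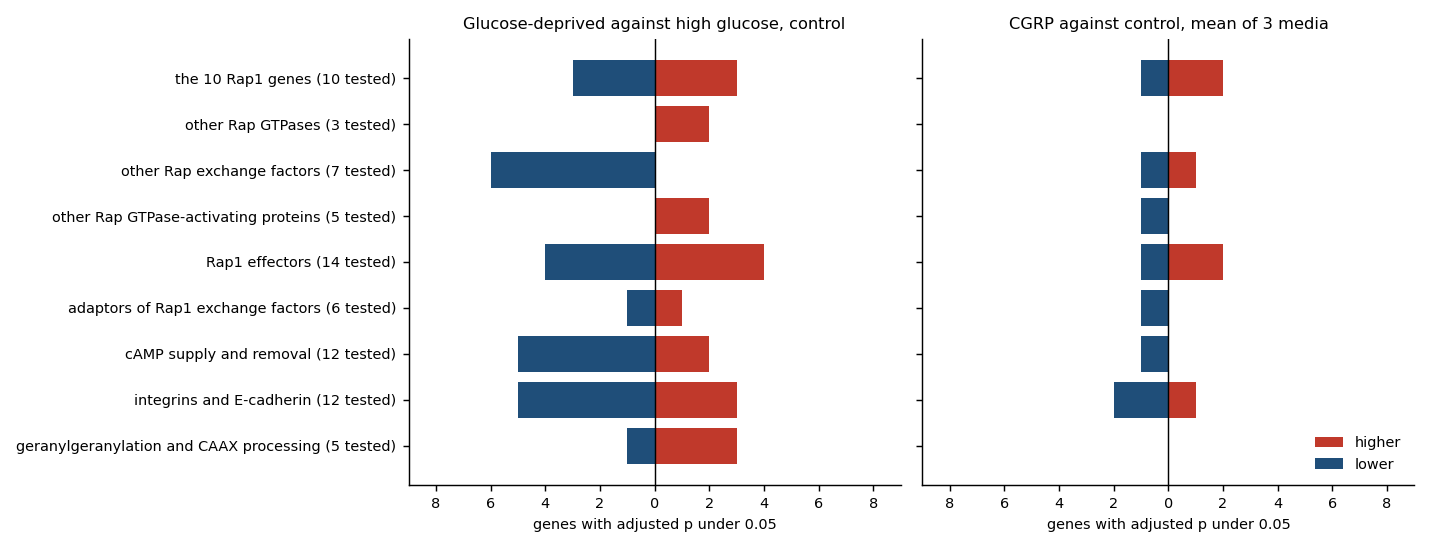
Number of genes per list with adjusted p under 0.05, higher to the right in red and lower to the left in blue, for deprivation without CGRP and for CGRP averaged over the 3 media; the number tested stands beside each list. With deprivation the other exchange factors are all on the lower side, 6 of 7, and 3 of the 10 Rap1 genes are on each side.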

How the data were processed

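RNA of 18 Cal27 cultures was sequenced, and the authors deposited 1 table of raw counts per gene and library. The reads were aligned with HISAT2 2.0.4, per the submitters' processing notes, which list 2 builds, hg19 and GRCh38, with no role for either. What counted the reads, with which annotation and strand setting, is not given in the sources used here. Symbols were found for 60370 of 60683 gene identifiers. Genes with at least 10 counts in about 3 libraries and 15 in all (filterByExpr) were given TMM factors and fitted in edgeR 4.0.16 (on R 4.3.3 with limma 3.58.1), using the robust quasi-likelihood F test, 1 coefficient per group, 12 residual degrees of freedom and Benjamini-Hochberg adjustment over all 18159 genes of each of 11 comparisons. The common biological coefficient of variation was 9.44%. Intervals are 95% intervals of the fitted log2 fold change, and p-values measure the spread between these cultures, which the 2 libraries that stand apart enlarge. Between 2 libraries of a group, chi-square per degree of freedom is near 1 when only counting noise separates them. It was 1.43 to 5.60 in pairs without these 2 libraries and 35.9 to 89.7 in pairs with 1 of them. The principal components used log2 CPM with a prior count of 2. Gene lengths came from GENCODE 29 exons. The test was checked on simulated counts. Named genes are the 10 members, the 3 genes most like RASGRP2 and SIPA1 by Pearson r among genes at a sufficient level, and genes of the pathway lists that passed; markers were named by list. The members and lists were chosen with earlier results of these data known. Alternatives were RLE size factors, total-count scaling, no filter on low counts, a stricter one (a mean above 2 CPM with at least 3 libraries above 1 CPM), a replicate block, a fit of only the groups compared, each library left out, both libraries that stand apart left out, and DESeq2 1.42.0. The list of lymphocyte genes was chosen after their values were seen.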

Additional observations from a re-analysis of the deposited data

Results flagged for a closer look

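The 3 libraries of 2-DG with CGRP held RNA of lymphocyte genes that the others hardly held. Over 15 such genes, chosen after their values were seen, these libraries held 194, 216 and 303 counts, 713 in all, and every one of the 15 genes had a count in each of the 3. The other 15 libraries held between 0 and 7 counts. In the group, the granzyme genes GZMA and GZMB had 115 and 77 counts, GNLY (granulysin) 94, NKG7 62, PTPRC 58 and the killer-cell receptor gene KIR3DL1 23, and no other group held more than 2 counts of any of these 6. PTPRC and CD3E also belong to the leukocyte list summed above. As a list, the 15 genes were not tested and are given as counts. Whether they bear on any of the 4 calls of CGRP in 2-DG medium was not tested.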

How the results depend on the processing

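Of 31 calls of single genes in the report, 18 held in every alternative run, 13 were lost in at least 1 and 0 reversed. The number of Rap1 genes that passed with CGRP in high glucose (0) became 2 when only the groups compared were fitted and 1 without both libraries that stand apart (19.1% of all genes). With CGRP in deprived medium (2) it became 0 with only the groups compared. With CGRP in 2-DG medium (4) it was 2 with RLE size factors, total-count scaling, no low-count filter, the stricter filter, only the groups compared and DESeq2, and between 2 and 3 with a library left out. For 2-DG without CGRP (3) it was 5 without both libraries that stand apart (32.5% of all genes) and between 1 and 3 with a library left out, the lowest without replicate 3 of the high-glucose control. Deprivation under CGRP (6) gave 3 with only the groups compared. 2-DG under CGRP (1) gave 0 without a low-count filter and 0 to 1 with a library left out. The differences of the CGRP effect (0 and 0) gave 1 each without both libraries that stand apart (13.5% and 5.91% of all genes). RAPGEF1 changed sign there: with CGRP in deprived medium it went from -0.04 to 0.17, and the difference from high glucose from -0.01 to 0.19. Apart from these 2 libraries themselves, whose RAPGEF1 level is given in the report, the cause was not tested.

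Total-count scaling shifted the median log2 fold change of all genes by -0.16 for deprivation without and -0.13 under CGRP. Under it the share of calls that were higher went from 51.2% to 38.0% and from 52.8% to 41.5% for these, from 57.7% to 38.1% and from 63.6% to 51.1% for 2-DG without and under CGRP, and from 49.2% to 66.2%, 43.5% to 57.0% and 46.4% to 60.4% for CGRP in deprived medium, in 2-DG and averaged. For the differences of the CGRP effect it went from 58.2% to 70.5% and from 31.0% to 44.4%. The directions of the called Rap1 genes held under it.

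The replicate numbers did not pair the libraries: 6 of 45 same-numbered pairs correlated above 0.1 (range -0.19 to 0.64), and 6 of 18 libraries correlated best with their own number. The pair at 0.64 was that of the 2 libraries that stand apart. With a replicate block, 2 Rap1 genes passed with CGRP in 2-DG medium, and no other count moved by over 1.5 times. Few counts limit RASGRP2 in deprived medium (46 counts in the control) and RAPGEF3 (810 in all libraries).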
